A study of Mus musculus with 6 samples.

Results

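The Hippo pathway is a kinase cascade that restrains YAP and TAZ, the co-activators that drive TEAD-dependent transcription and growth. Its core kinases *Stk3* and *Stk4* activate *Lats1* and *Lats2*, which phosphorylate YAP and keep it out of the nucleus. Further proteins set how strongly the cascade runs. TAO kinases and MAP4 kinases phosphorylate core kinases from above, WWC scaffolds promote LATS activity, striatins bring the phosphatase PP2A to the kinases and oppose them, and angiomotins and the phosphatase PTPN14 bind YAP directly. In the heart the pathway is known for limiting cardiomyocyte growth and proliferation.

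Expression of 10 such regulators was examined: *Taok1*, *Taok2* and *Taok3*, *Map4k4*, *Wwc2*, *Strn3*, the angiomotin genes *Amot*, *Amotl1* and *Amotl2*, and *Ptpn14*. They were chosen by name from the 56748 genes of the count table, and none of them belongs to the list of Hippo components that the study compiled. RNA came from whole heart tissue of 3 Pontin cTG mice and 3 WT littermates, male and on a C57Bl/6 background, sequenced as a library per mouse. In Pontin cTG mice a flag-tagged human Pontin cDNA stands behind the mouse α-myosin heavy chain promoter, which is active in cardiomyocytes, and the littermates lack it. All 6 mice, controls included, received angiotensin II (Ang-II) over 14 days from a mini-osmotic pump (1.5 mg per kg of body weight daily), so no untreated heart enters the comparison. They were 10 weeks old when Ang-II was started. The number of founder lines behind the transgenic mice is not given in the sources used here.

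All 10 genes are annotated as protein-coding, at these positions on GRCm38 (GENCODE M21). *Taok1* (ENSMUSG00000017291) lies on chromosome 11 from 77529162 to 77607815, *Taok2* (ENSMUSG00000059981) on chromosome 7 from 126865678 to 126884703 and *Taok3* (ENSMUSG00000061288) on chromosome 5 from 117120129 to 117275219. *Map4k4* (ENSMUSG00000026074) lies on chromosome 1 from 39900913 to 40026310, *Wwc2* (ENSMUSG00000031563) on chromosome 8 from 47823959 to 47990924 and *Strn3* (ENSMUSG00000020954) on chromosome 12 from 51609632 to 51691897. *Amot* (ENSMUSG00000041688) lies on chromosome X from 145446425 to 145505181, *Amotl1* (ENSMUSG00000013076) on chromosome 9 from 14541966 to 14645056 and *Amotl2* (ENSMUSG00000032531) on the same chromosome from 102716672 to 102733418. *Ptpn14* (ENSMUSG00000026604) lies on chromosome 1 from 189728268 to 189876695.

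The promoters of these genes were searched for the letters that TEAD factors recognise, since some regulators of YAP are themselves known YAP targets. RefSeq windows on GRCm38.p6, from 250 bases before to 50 bases after the transcript start, were at hand for 9 of the 10 genes (not for *Map4k4*). Each window covers a single annotated start of its gene. Those of *Amot*, *Amotl1*, *Amotl2* and *Wwc2* lie inside the gene spans given above. The end of the *Taok2* window matched no GENCODE M21 transcript of that gene. The motif GGAATG, read on both strands (CATTCC on the other), was found in 3 of the 9 windows, which is 33.3%, while 14.7% of all 32851 mouse promoter windows hold it. The 3 windows are shown because they are those of the 9 searched that hold TEAD letters. Other starts of the genes were not searched. They are printed 5′ to 3′ on the gene's strand with the motif in capitals, and lie at chr9:102717554-102717853 on the plus strand for *Amotl2*, chr1:189728018-189728317 on the plus strand for *Ptpn14* and chr8:47990495-47990794 on the minus strand for *Wwc2*.
Amotl2: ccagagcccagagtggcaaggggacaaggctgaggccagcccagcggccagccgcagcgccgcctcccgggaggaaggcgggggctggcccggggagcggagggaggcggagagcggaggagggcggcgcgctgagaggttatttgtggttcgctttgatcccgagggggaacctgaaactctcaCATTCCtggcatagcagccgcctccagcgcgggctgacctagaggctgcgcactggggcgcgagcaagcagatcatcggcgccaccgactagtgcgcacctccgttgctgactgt
Ptpn14: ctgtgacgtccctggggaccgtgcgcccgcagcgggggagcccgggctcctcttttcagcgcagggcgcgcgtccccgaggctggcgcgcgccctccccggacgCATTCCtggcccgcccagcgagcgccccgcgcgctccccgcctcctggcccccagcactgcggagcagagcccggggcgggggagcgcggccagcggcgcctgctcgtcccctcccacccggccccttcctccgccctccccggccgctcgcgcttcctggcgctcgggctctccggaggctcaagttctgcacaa
Wwc2: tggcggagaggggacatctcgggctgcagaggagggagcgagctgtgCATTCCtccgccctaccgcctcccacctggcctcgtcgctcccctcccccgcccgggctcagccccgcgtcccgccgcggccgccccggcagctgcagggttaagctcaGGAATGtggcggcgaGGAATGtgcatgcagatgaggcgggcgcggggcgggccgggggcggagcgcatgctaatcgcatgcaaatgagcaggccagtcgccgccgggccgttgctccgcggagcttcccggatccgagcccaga
The *Wwc2* window holds 3 matches, whose first bases lie 203, 94 and 79 bases before the start. The *Amotl2* and *Ptpn14* windows hold a single match each, 65 and 146 bases before it. The AP-1 motif TGANTCA, which reads the same on both strands, was in none of the 9 windows and in 7.81% of all windows, and the E-box CACGTG, also the same on both strands, was in the *Amot* window only and in 7.15% of all windows. A match of letters is a description of the sequence and no measure of binding.

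Total counts ran from 12436822 to 13194038 in WT and from 14584102 to 16888124 in Pontin cTG libraries. After TMM normalisation, edgeR tested genotype by quasi-likelihood in the 13888 genes left by a filter on low counts, over all of which p-values were adjusted (Benjamini-Hochberg). Pontin cTG replicate 2 stood apart, with a score of 50.9 on a first principal component that held 48.6% of the variance, where the other 5 libraries scored from -23.1 to 16.2. The methods of the study mention the removal of an outlier found by principal components without saying which sample or experiment it came from, while its statement on exclusions names none, so whether this library was in the study's own comparison is not given in the sources used here. It was kept here, and values without it stand beside the results. The deviation of a library from the mean correlated with gene length across genes at 0.11 to 0.19 (Spearman) in WT and at 0.084, -0.20 and -0.16 in Pontin cTG replicates 1 to 3. *Ruvbl1*, the mouse gene of Pontin, had more counts in every Pontin cTG library (240.0 normalised counts or more) than in every WT library (216 to 221). Of all genes, 4.70% were higher without overlap. The log2 difference was 0.18 with a standard error of 0.12, and edgeR gave an adjusted p of 0.999. Reads of the human cDNA may or may not map to *Ruvbl1*, so its counts cannot be assigned to the mouse gene alone. Cardiomyocyte markers (*Myh6*, *Tnnt2*, *Actc1*, *Myl2*, *Ryr2* and *Pln*) summed to between 40030 and 49950 CPM (counts scaled to a common library total) in each library, whereas the lymphocyte and adipocyte markers each summed to under 2 CPM and none of them passed the filter. In each of 9 lists of cell type markers the summed levels of the groups overlapped, and 0 markers were called.

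All 10 regulators were expressed, with 848 to 13748 counts over the 6 libraries, and all 10 passed the filter on low counts. Per kb of gene length, the order of levels in WT hearts was *Strn3* at 18.2 ± 0.892 CPM per kb (SD, n = 3), *Map4k4* at 17.6 ± 0.757, *Amotl1* at 12.4 ± 0.490, *Amotl2* at 8.27 ± 0.964 and *Taok1* at 8.27 ± 0.302. *Taok2* followed at 5.72 ± 0.149 CPM per kb, *Wwc2* at 5.11 ± 0.434, *Ptpn14* at 3.79 ± 0.236, *Amot* at 2.57 ± 0.109 and *Taok3* at 0.919 ± 0.0863. The ranges of mean ± SD overlapped between the neighbours *Strn3* and *Map4k4* and between *Amotl2* and *Taok1*, and not between the others. In whole tissue, fewer cells of a type and less RNA per cell cannot be told apart.

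None of the 10 regulators differed between Pontin cTG and WT hearts at an adjusted p under 0.05 in edgeR, which called 0 of all 13888 genes (0%). At an unadjusted p under 0.05, edgeR gave 0 of the 10 regulators and 285 of all genes (2.05%). DESeq2 called 1 gene at the adjusted threshold (217 at an unadjusted p under 0.05) and limma-voom with sample quality weights called 3, none of them a regulator described here. Of the 10, 9 had a lower and 1 (*Taok2*) a higher mean in Pontin cTG hearts, where 6912 of all 13888 genes were lower and 6976 higher. Over the 10 the median log2 fold change was -0.12, against 0.0013 over all genes tested. In no regulator did the libraries of the groups separate, while 4.70% of all genes were higher and 3.63% lower in Pontin cTG without overlap. For most of the members the library of lowest expression was the same. Pontin cTG replicate 2 held the lowest normalised count of *Amotl1*, *Amotl2*, *Taok1*, *Taok3*, *Map4k4*, *Ptpn14*, *Wwc2* and *Strn3*, 8 of the 10, where it was the lowest library for 30.7% of all genes. It held the highest count of *Taok2* alone, where it was the highest library for 30.2% of all genes.

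**Figure D1:**
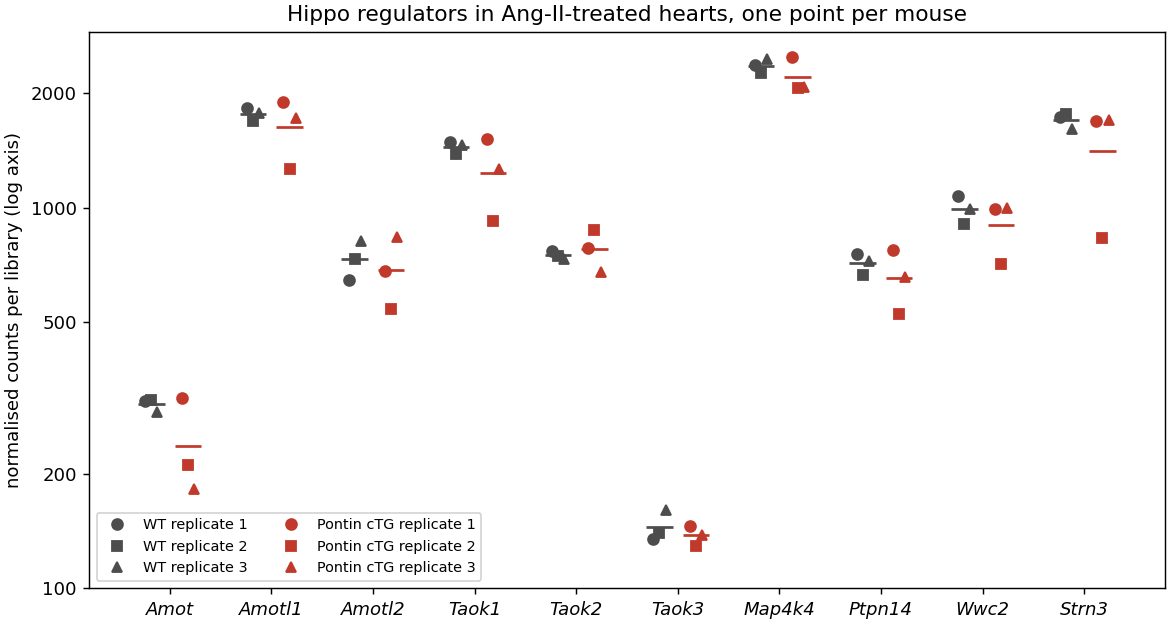
Normalised counts (log axis) of the 10 Hippo regulators in each library, with WT in grey, Pontin cTG in red, a symbol per replicate and a bar at each group mean. The red square, Pontin cTG replicate 2, is the lowest point for 8 of the 10 genes and the highest for *Taok2*.

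TAO kinases phosphorylate and activate *Stk3* and *Stk4* and so sit at the top of the cascade. *Taok1* had 1487, 1387 and 1466 normalised counts in the WT replicates, in order, against 1517, 922 and 1268 in Pontin cTG replicates 1 to 3. Pontin cTG replicate 1 was the highest of all libraries and replicates 2 and 3 lay below every WT library. The log2 fold change was -0.23 (standard error 0.18, 95% interval -0.64 to 0.19, adjusted p = 0.999 in edgeR). *Taok2* had 772, 747 and 733 normalised counts in WT and 783, 873 and 680.0 in Pontin cTG replicates 1 to 3. Here replicate 2 was the highest and replicate 3 the lowest of the 6, and the log2 fold change was 0.052 (standard error 0.13, 95% interval -0.25 to 0.35). *Taok3*, the least expressed of the 10, had 134, 139 and 159.9 in WT and 145.5, 129 and 138 in Pontin cTG replicates 1 to 3. Its groups overlapped throughout, and the log2 fold change was -0.071 (standard error 0.16, 95% interval -0.42 to 0.28).

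The make-up of the TAO kinase family, taken per kb of gene length within each library, does not depend on the scaling of libraries. *Taok1* made up 55.8%, 54.6% and 55.9% of the family in WT and 55.7%, 41.4% and 54.5% in Pontin cTG replicates 1 to 3. *Taok2* made up 38.6%, 39.3% and 37.3% in WT and 38.3%, 52.2% and 38.9% in Pontin cTG. In 5 libraries *Taok1* was thus the leading TAO kinase, and in Pontin cTG replicate 2 *Taok2* was. Both shares overlapped between the groups, with p = 0.2 for *Taok1* and p = 0.5 for *Taok2* in a two-sided exact permutation test, where 0.1 is the smallest p that 3 mice against 3 allow. Without Pontin cTG replicate 2 the difference in the *Taok1* share was -0.35 percentage points, against -4.93 with it, and that in the *Taok2* share was 0.25 against 4.76.

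*Map4k4* encodes a kinase that phosphorylates LATS kinases in parallel to *Stk3* and *Stk4*. It had 2379, 2261 and 2465 normalised counts in WT and 2498, 2067 and 2074 in Pontin cTG replicates 1 to 3. Replicate 1 was again the highest and replicates 2 and 3 the lowest, and the groups differed by -0.098 on the log2 scale (standard error 0.14, 95% interval -0.41 to 0.22). *Wwc2*, a relative of the scaffold KIBRA that promotes LATS activation, had 1076, 908 and 992 in WT and 995, 713 and 1001 in Pontin cTG replicates 1 to 3. Only replicate 2 lay outside the WT range, and the log2 fold change was -0.14 (standard error 0.16, 95% interval -0.50 to 0.23). *Wwc1*, the KIBRA gene itself, had 5 counts over all libraries, against 5680 for *Wwc2*, and was not tested.

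*Strn3* encodes a striatin, a PP2A subunit of the STRIPAK complex that removes activating phosphates from Hippo kinases. It had 1730.0, 1770.1 and 1609.7 normalised counts in WT and 1691, 833 and 1702 in Pontin cTG replicates 1 to 3. Replicates 1 and 3 lay within the WT range and replicate 2 stood far below it, at a log2 difference of -1.03 from the mean of the other Pontin cTG libraries, the furthest of the 10 regulators. The log2 fold change between groups was -0.27 (standard error 0.25, 95% interval -0.84 to 0.29, adjusted p = 0.999 in edgeR), and -0.0053 without replicate 2. *Ap4s1*, annotated on the opposite strand, overlaps *Strn3* in the table and had 2335 counts in all against 9259 for *Strn3*. The strand setting of the counting is not given in the sources used here, so reads of the overlap could not be told apart.

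Angiomotins are scaffolds at cell junctions and the actin cytoskeleton that bind YAP and retain it in the cytoplasm. *Amot* had 310.5, 313 and 289.5 normalised counts in WT and 315, 211 and 182 in Pontin cTG replicates 1 to 3. Replicates 2 and 3 lay well below every WT library while replicate 1 lay above them all. The log2 fold change of -0.37 (standard error 0.20, 95% interval -0.82 to 0.086) was the lowest of the 10. edgeR gave it an unadjusted p of 0.0994, and 0.999 after Benjamini-Hochberg adjustment. It was -0.62 without Pontin cTG replicate 1 and -0.21 without replicate 3. *Amot* was lower in Pontin cTG in all 14 alternative settings, as were *Taok1*, *Map4k4* and *Strn3*. Without replicate 2 the log2 fold change of *Amot* was -0.30.

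*Amotl1*, the most abundant angiomotin transcript per kb, had 1827, 1689 and 1774 normalised counts in WT and 1901, 1266 and 1719 in Pontin cTG replicates 1 to 3. *Amotl2*, whose own transcription is a known YAP target, had 646, 734 and 817 in WT and 680.5, 542 and 839 in Pontin cTG replicates 1 to 3. In both genes replicate 2 alone lay below the WT range. Their log2 fold changes were -0.12 (standard error 0.17) and -0.092 (standard error 0.18), and without replicate 2 they turned to 0.038 and 0.055. Within the family, *Amotl1* made up 53.5 ± 2.63% in WT hearts (SD, n = 3) against 54.0 ± 2.17% in Pontin cTG hearts, *Amotl2* 35.5 ± 3.15% and 36.6 ± 4.31%, and *Amot* 11.1 ± 0.824% and 9.48 ± 2.48%. The share of *Amot* was 6.64% in Pontin cTG replicate 3 and between 10.1% and 11.6% in the other libraries. A two-sided exact permutation test gave p = 0.5 for *Amot*, 0.6 for *Amotl1* and 0.7 for *Amotl2*, and the groups overlapped in all 3 shares.

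**Figure D2:**
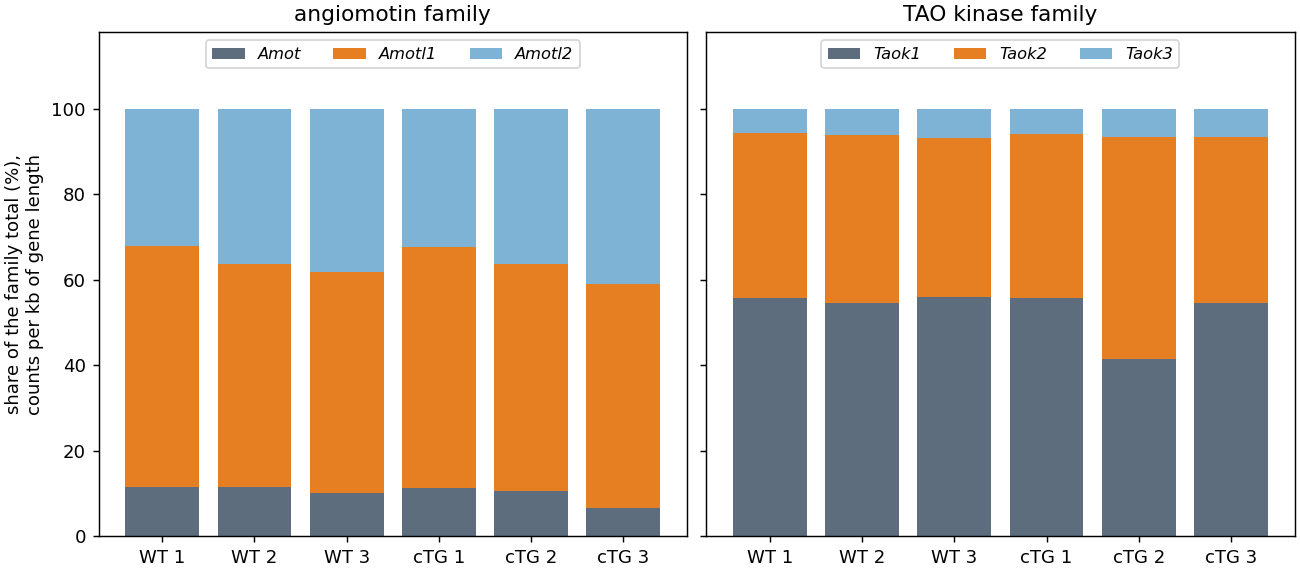
Stacked bars give the share (%) of each angiomotin and TAO kinase transcript in its family's total of counts per kb of gene length, with a bar per library. *Taok2* takes 52.2% in Pontin cTG replicate 2 and 37.3% to 39.3% in the other libraries, while the angiomotin shares have no such library except for *Amot* at 6.64% in Pontin cTG replicate 3.

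*Ptpn14* encodes a tyrosine phosphatase that binds YAP and is, like *Amotl2*, a known YAP target. It had 755, 667 and 723 normalised counts in WT and 776, 525 and 656 in Pontin cTG replicates 1 to 3. Replicate 1 was the highest library and replicates 2 and 3 the lowest. The log2 fold change was -0.13 (standard error 0.16, 95% interval -0.49 to 0.23, adjusted p = 0.999 in edgeR). The 3 genes with TEAD letters in the promoters printed above, *Amotl2*, *Ptpn14* and *Wwc2*, thus had log2 fold changes of -0.092, -0.13 and -0.14, all from overlapping groups.

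For most genes tested, and for most of the regulators, the spread within groups was wider in the Pontin cTG libraries. The coefficient of variation of normalised counts ran from 2.61% to 11.7% over the 10 regulators in WT and from 5.89% to 35.4% in Pontin cTG, and it was larger in Pontin cTG for 9 of the 10 (not *Taok3*), where 69.4% of all genes were so. Relative to the mean of the other Pontin cTG libraries, replicate 2 had a median log2 difference of -0.47 over the 10 regulators and of 0.0044 over all genes tested. The regulators are long, with a median gene length of 9821.5 bases against 4317.5 over all genes tested. A lowess trend on gene length was then removed from each library. The median difference of replicate 2 became -0.36 over the 10 regulators and -0.0049 over all genes. After this step the difference was -0.97 for *Strn3*, -0.49 for *Taok1*, -0.44 for *Amotl2* and -0.41 for *Amotl1*, and 0.35 for *Taok2*. Replicate 2 was then the lowest library for 6 of the 10 regulators, against 8 before. The share of all genes after this step was not computed. Replicate 2 also had the highest summed level of 8 endothelial markers (*Pecam1*, *Cdh5*, *Kdr* and others), at 1351 CPM against 1048 to 1062 in WT and 915 and 996 in the other Pontin cTG libraries, with none of the 8 at 0. Among the Pontin cTG libraries it was also the highest for cardiomyocyte, fibroblast, mural and macrophage markers, at 45280, 1126, 1057 and 203 CPM, each below the highest WT library (49950, 1160, 1184 and 252). The part of cell make-up in the lower counts of replicate 2 was not tested.

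Between the groups, log2 fold changes shifted with single libraries and with the gene length trend. Without Pontin cTG replicate 2, the signs of *Amotl1*, *Amotl2*, *Taok2*, *Ptpn14* and *Wwc2* turned and the median of the 10 was -0.017. *Amot* was then at -0.30. Without Pontin cTG replicate 1, the highest library for *Amot*, *Amotl1*, *Taok1*, *Map4k4* and *Ptpn14*, the median was -0.22. With the gene length trend removed, the median was -0.0083. *Taok2*, *Taok3*, *Ptpn14* and *Wwc2* were then above 0, at 0.15, 0.048, 0.0018 and 0.0072, and *Amot* and *Strn3* were at -0.29 and -0.23.

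**Figure D3:**
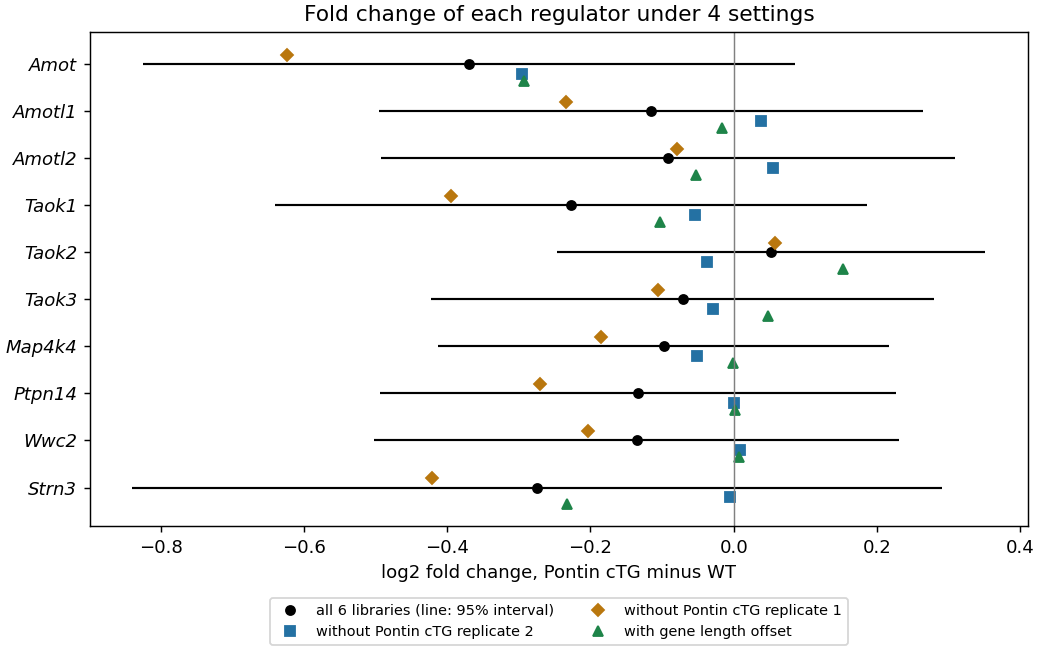
Log2 fold change (Pontin cTG minus WT) of each regulator with all 6 libraries (black, with its 95% interval), without Pontin cTG replicate 2 (blue), without replicate 1 (orange) and with a gene length offset (green). Every interval includes 0, and without replicate 2 the values of all but *Amot* lie between -0.054 and 0.055.

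The relatives of these regulators were read from the same fit. Of 10 named relatives 9 were tested, 3 with a higher and 6 with a lower mean in Pontin cTG hearts and a median log2 fold change of -0.0095, and 0 passed the adjusted threshold. *Strn*, the founding striatin, had 778, 789.7 and 727 normalised counts in WT and 654, 461.5 and 561 in Pontin cTG replicates 1 to 3. Every Pontin cTG library was below every WT library, which was so for 1 of the 9 tested relatives and for 3.63% of all genes. *Strn* was also the only 1 of the 9 at an unadjusted p under 0.05 in edgeR, where 2.05% of all genes were. The log2 fold change was -0.45 (standard error 0.15, unadjusted p = 0.0143, adjusted p = 0.999 in edgeR), and leaving out each library in turn gave -0.57 to -0.33. *Strn4* did not share this pattern, with 818 to 937 counts in WT and 878 to 921 in Pontin cTG, a log2 difference of 0.027 (standard error 0.12). The share of *Strn* among the 3 striatins per kb was 19.1 ± 0.454% in WT and 16.5 ± 1.66% in Pontin cTG, and every Pontin cTG value was the lower (p = 0.1 by a two-sided exact permutation test, its minimum).

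Among MAP4 kinases and their kin, *Map4k2* had the highest log2 fold change, 0.34 (standard error 0.23), which rested on Pontin cTG replicate 2 at 639 counts, the other Pontin cTG libraries having 341 and 368 and the WT libraries 355 to 357, and was -0.0037 without it. *Map4k3*, *Map4k5*, *Mink1* and *Tnik* had log2 fold changes of -0.0095, -0.029, 0.064 and -0.12. *Map4k1*, a kinase of blood cells, had 72 counts in all with a log2 difference of -0.0069 between groups (standard error 0.48). *Map4k4* took 45.8 ± 0.554% of the counts per kb of the 6 genes of this group other than *Map4k1*, itself included, in WT hearts (SD, n = 3) against 42.7 ± 3.63% in the Pontin cTG hearts. *Ptpn21*, the relative of *Ptpn14*, stood at -0.13 on the log2 scale (standard error 0.21), and at 0.081 without Pontin cTG replicate 2.

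STRIPAK joins striatins to PP2A, to kinases and to adaptors such as *Slmap*, *Sike1* and *Strip2*. Of 16 such partners 15 were tested, 5 with a higher and 10 with a lower mean in Pontin cTG hearts and a median log2 fold change of -0.024, and 0 passed the adjusted threshold. *Strip2* had 2283, 2005 and 1878 normalised counts in WT and 1623, 1196 and 1488 in Pontin cTG replicates 1 to 3, with no overlap. Its log2 fold change was -0.52 (standard error 0.16, unadjusted p = 0.00966, adjusted p = 0.999 in edgeR), from -0.61 to -0.40 when each library was left out in turn, and its unadjusted p was 0.0515 without WT replicate 1. *Slmap*, *Sike1* and *Ppp2r1a* were also lower without overlap, with log2 fold changes of -0.23, -0.15 and -0.067, and *Slmap* stood at -0.059 without Pontin cTG replicate 2. In all, 4 of the 15 were lower and 0 higher without overlap, where 3.63% of all genes were lower and 4.70% higher. *Stk25* had the highest value, 0.11 (standard error 0.15), and -0.042 without Pontin cTG replicate 2.

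Of 12 genes for junction partners of angiomotins and for their turnover, 2 had a higher and 10 a lower mean in Pontin cTG hearts. The median log2 fold change was -0.24, and 0 passed the adjusted threshold. *Tjp1*, the tight junction protein ZO-1, had 1644, 1632 and 1356 normalised counts in WT and 1299.5, 1225 and 1214 in Pontin cTG replicates 1 to 3, with no overlap. Its log2 fold change was -0.31 (standard error 0.13, unadjusted p = 0.0455, adjusted p = 0.999 in edgeR), and its unadjusted p ran from 0.0212 to 0.169 over the alternatives. *Lin7c*, at -0.23, was also lower without overlap, which makes 2 of 12 where 3.63% of all genes were so. *Usp9x*, a deubiquitinase, had the lowest log2 fold change, -0.46 (standard error 0.27), and -0.19 without Pontin cTG replicate 2. That library had 859 counts, the other Pontin cTG libraries 2066 and 1472, and the WT libraries 1931 to 2085. *Arhgap17* was highest at 0.018 (standard error 0.18), and stood at -0.11 without Pontin cTG replicate 2. Over the list, the median became -0.11 without Pontin cTG replicate 2 and -0.14 with the gene length offset.

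Downstream, log2 fold changes of the 14 core and effector genes had their median at -0.060 and ran from -0.38 in *Tead1* to 0.40 in *Tead3*, with 6 higher and 8 lower. A signature of 22 YAP/TEAD targets, which includes *Amotl2* and *Ptpn14*, had 21 genes tested. Of these, 6 had a higher and 15 a lower mean in Pontin cTG hearts, with a median of -0.092, from -0.34 in *Tgfb2* to 0.66 in *Nuak2* (standard errors 0.25 and 0.34). In both lists 0 genes passed the adjusted threshold and 0 had an unadjusted p under 0.05. Among the core genes *Lats1* and *Sav1*, a kinase and a scaffold of the cascade, were lower without overlap (-0.17 and -0.28) and *Tead3* was higher. Among the targets *Rbms3* (-0.26) was lower without overlap and 0 were higher. These are 2 of 14 lower, 1 of 14 higher and 1 of 21 lower, where 3.63% of all genes were lower and 4.70% higher. Single libraries moved the extremes. *Tgfb2* was at -0.13 without WT replicate 2, and at -0.17 or -0.61 when Pontin cTG replicate 1 or 2 was left out. *Nuak2* was at 0.28 without Pontin cTG replicate 1, and *Tead3* at 0.24 when replicate 2 of the same group was left out. Without that library the medians of the lists were -0.024 and -0.051, and *Tead1* was at -0.096, while without Pontin cTG replicate 1 it was at -0.69. Pontin cTG replicate 2 was the lowest library for 9 of 12 angiomotin partners, 7 of 15 STRIPAK partners and 4 of 9 relatives. It was the lowest for 5 of 14 core and effector genes and 8 of 21 targets, where it was so for 30.7% of all genes.

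**Figure D4:**
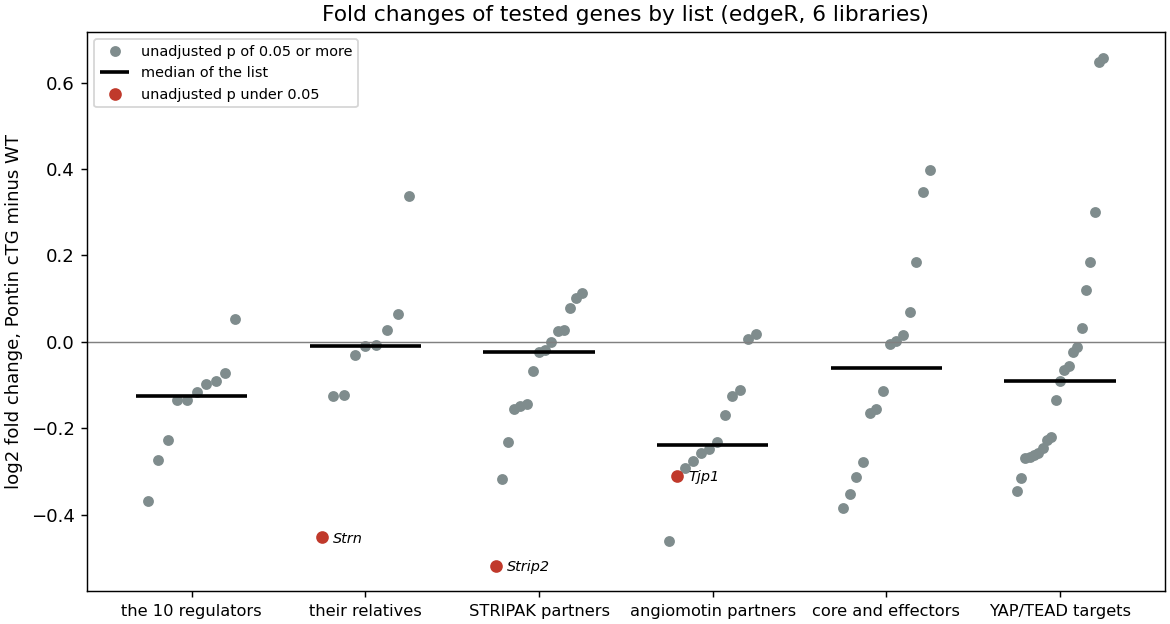
Log2 fold change (Pontin cTG minus WT) of each tested gene, sorted within 6 lists, with the list median as a black line and genes at an unadjusted p under 0.05 in red. *Strn*, *Strip2* and *Tjp1* are the only red points, and the list medians lie between -0.24 and -0.0095.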

How the data were processed

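Hearts of 6 Ang-II-treated mice, 3 of each genotype, were profiled by RNA-seq. The authors deposited whole-number counts per Ensembl gene, not normalised, in a table of 56748 genes whose 6 sample columns were matched by the names in the labels (0 unmatched). The methods of the study name Trimmomatic, STAR and mm10, whereas the submitters' processing notes list fastp, HISAT2, featureCounts and GRCm39. The strand setting is not given in the sources used here. Coordinates are therefore those of GENCODE M21 on GRCm38, matched by identifier, and the table's own positions were used only to find overlapping genes. Gene lengths are the table's.

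Low genes were removed by filterByExpr at a minimum count of 10. TMM factors were computed, and genotype, the single term of the model, was tested with glmQLFit (robust) and glmQLFTest of edgeR 4.0.16 in R 4.3.3. Adjusted p-values are Benjamini-Hochberg values over the 13888 genes kept. Normalised counts are counts per TMM-scaled library, multiplied by the geometric mean of the 6 scaled library sizes. A standard error is the log2 fold change divided by the square root of F. Totals of 12436822 to 16888124 counts limit the precision of single genes, and the common biological coefficient of variation was 0.197. Permutation tests were exact and two-sided on 3 against 3 mice. No pair of libraries agreed within sampling noise (chi-square per gene of at least 5.54).

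The regulators and gene lists were chosen with earlier results of these data known. Genes named are the 10 regulators, their relatives, *Ruvbl1* and, in every other list, the highest and lowest gene and those at an unadjusted p under 0.05. Other genes whose groups did not overlap were named after their values were seen. Alternatives were DESeq2 1.42.0, its size factors within edgeR, library size alone, 2 other filters, a block for the replicate number, limma-voom with quality weights (limma 3.58.1), a lowess offset on gene length (span 0.3) and each library left out. The fits were first run on simulated counts that held no outlying library and no gene length trend, so that run does not cover these features of the data.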

Additional observations from a re-analysis of the deposited data

How the results depend on the processing

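Over 14 alternative settings, 0 of the 140 log2 fold changes of the 10 regulators passed an adjusted p of 0.05 (smallest 0.868). Their median, -0.12 with all libraries, was negative in all 14, but ran from -0.22 to -0.017 when each library was left out in turn (the latter without Pontin cTG replicate 2) and was -0.040 with limma-voom and -0.0083 with the gene length offset. The number of genes called was 1 with DESeq2, 3 without a filter on low counts, 3 with limma-voom and 0 to 3 when each library was left out, the 3 being without Pontin cTG replicate 2. In the other settings it was 0. Signs turned in 12 of the 140 values. With limma-voom *Amotl2* was at 0.034 and *Taok2* at -0.0087, and with the gene length offset *Taok3*, *Ptpn14* and *Wwc2* were at 0.048, 0.0018 and 0.0072. Leaving out each library gave -0.23 to 0.038 for *Amotl1*, -0.26 to 0.055 for *Amotl2*, -0.038 to 0.14 for *Taok2*, -0.12 to 0.016 for *Taok3*, -0.27 to 0.0009 for *Ptpn14* and -0.22 to 0.0091 for *Wwc2*. The cause was not tested. The medians of the relatives and of the TAO kinases moved to 0.058 and 0.048 with the gene length offset, and the latter ran from -0.12 to 0.016 when each library was left out. The replicate numbers name no shared litter or batch, so the libraries were treated as unpaired. Deviations of same-numbered libraries correlated at 0.077, 0.43 and 0.19, and those of differently numbered libraries at -0.35 to 0.25. These values do not settle whether the libraries were paired. With the replicate block the median of the 10 was -0.14, with 0 genes called and 499 at an unadjusted p under 0.05, *Amot* among them (unadjusted p = 0.0353, adjusted p = 0.944 in edgeR). With 3 mice per group, the interval of each of the 10 log2 fold changes included 0, and the intervals differed between genes. That of *Strn3* ran from -0.84 to 0.29 and that of *Taok2* from -0.25 to 0.35. For each gene, differences inside its own interval were not excluded here.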
